A study of Mus musculus with 16 samples.

Results

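The genes described here encode 10 proteins of myostatin and activin signalling: the ligand myostatin (Mstn), its antagonist follistatin (Fst), the type I receptors Acvr1b and Tgfbr1, the type II receptors Acvr2a and Acvr2b, the signal transducers Smad2 and Smad3, the inhibitory SMAD Smad7, and Id1, a target of the neighbouring bone morphogenetic protein (BMP) branch. They were chosen by gene name for their place in the pathway, and are 10 of the 14538 genes in a table of RNA sequencing (RNA-seq) of the mouse tibialis anterior, a shin muscle made up largely of fast fibres. All 10 were among the 11841 genes tested, those whose normalized count averaged 10 or more in the 16 libraries. A normalized count is a read count scaled so that libraries of different depth can be compared.

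The mice were wild-type males, C57BL/6 in the labels and C57BL/6J in the study's methods, that were placed on a NASH diet at 8 weeks of age, a diet that produces fatty liver disease with inflammation, and were kept singly at about 29 °C. The libraries came from 5 mice given vehicle (mice 1 to 5), 6 given recombinant GDF15 by daily subcutaneous injection in the morning (mice 1 to 6) and 5 that were pair-fed (mice 2 to 6), meaning that they were rationed, day by day, to the intake of the GDF15 group. The labels list GDF15 doses of 0.3 to 5 nmol/kg and do not say which of them these 6 mice received. The shared numbers do not denote the same animal, and the mice were euthanized in the fed state. Pair-fed against vehicle compares eating less with eating freely, and GDF15 against pair-fed compares the treatment with its matched food intake.

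Myostatin and the activins are secreted ligands of the transforming growth factor β (TGFβ) family. A ligand dimer binds a type II receptor, which phosphorylates a type I receptor, which in turn phosphorylates SMAD2 and SMAD3, so that these enter the nucleus with SMAD4 and bind DNA at short sequences. In skeletal muscle this pathway restrains growth, follistatin opposes it by trapping the ligands, and BMPs signal through other SMADs and favour growth. GDF15 is a distant member of the same ligand family, but its known receptor is GFRAL in the hindbrain.

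The approximate depth of the libraries was 9465065 to 15030303 reads, with a median of 13903437 for vehicle, 12119176 for GDF15 and 14261194 for pair-feeding. The labelled muscle was evident in its markers, since all 10 genes of a muscle fibre list were detected in every library and Myh4, the myosin heavy chain of the fastest fibres, had a mean of 857746 normalized counts. Differences are log2 fold changes of the normalized count plus 1, fitted with limma over all 3 groups, and adjusted p-values follow Benjamini and Hochberg and cover all 11841 genes. A gene passed the test at an adjusted p under 0.1, and passed both thresholds when its log2 fold change was also over 0.6 in size.

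The fitted differences between groups were at most 0.50 on the log2 scale for every member and comparison but Fst between GDF15 and pair-feeding (0.66), and 0 of the 10 passed both thresholds in any of the 3 comparisons. Acvr1b was higher in pair-fed and in GDF15-treated mice than in vehicle-treated mice, and Smad3 was lower in pair-fed than in vehicle-treated mice. These were the members that passed at the adjusted p alone, Acvr1b in both comparisons with vehicle and Smad3 in 1 of them. Between GDF15 and pair-feeding 0 members passed.

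The counts were read against all genes tested, where 1 member is 10% of the 10. For GDF15 against pair-fed, 0 of 10 members passed both thresholds where 0.279% of all tested genes did, 0 passed the adjusted p alone where 2.17% did, and 0 had values that did not overlap between the groups where 1.77% did. For GDF15 against vehicle the members' counts were 0, 1 and 0, beside 0.304%, 0.769% and 1.65% of all tested genes. For pair-fed against vehicle they were 0, 2 and 1, beside 0.819%, 6.37% and 5.44%. At an unadjusted p under 0.05 the members' counts were 1, 2 and 4 in the same order, beside 1559, 1308 and 2234 of all 11841 tested genes. The median log2 fold change of the 10 members was -0.07 for GDF15 against pair-fed, -0.11 for GDF15 against vehicle and -0.03 for pair-fed against vehicle, while the median over all tested genes was 0.00 in each. In size, without the sign, the members' median was 0.13, 0.15 and 0.15, beside 0.10, 0.09 and 0.11 over all tested genes. The comparisons with vehicle share the same 5 vehicle libraries and are therefore not independent of each other.

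**Figure D1:**
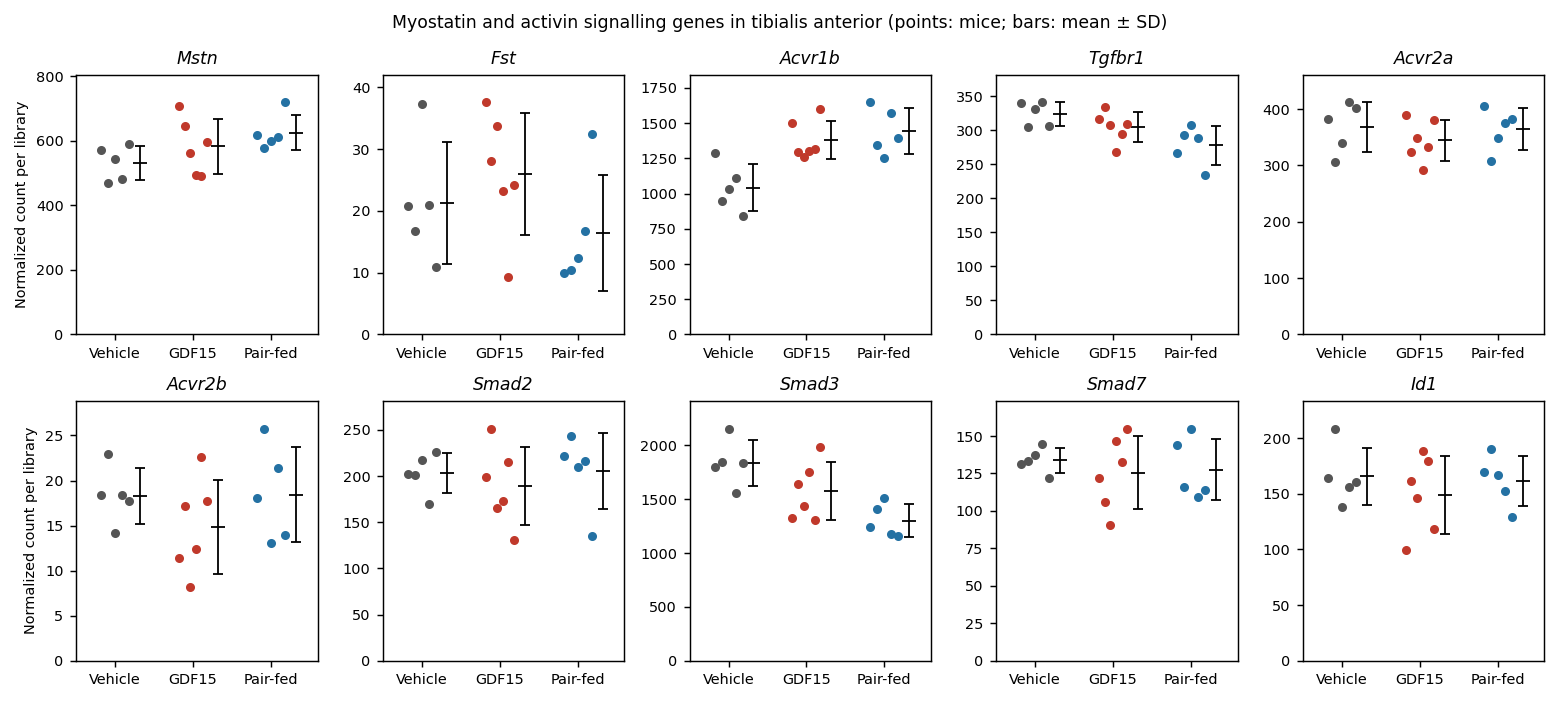
Normalized counts (vertical axes, starting at 0) of the 10 genes in each mouse, by group, with the mean and SD as a bar beside the points. Acvr1b sat between 839 and 1285 with vehicle and between 1253 and 1648 with pair-feeding, and all 5 pair-fed values of Smad3 lay below the lowest vehicle value.

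**Figure D2:**
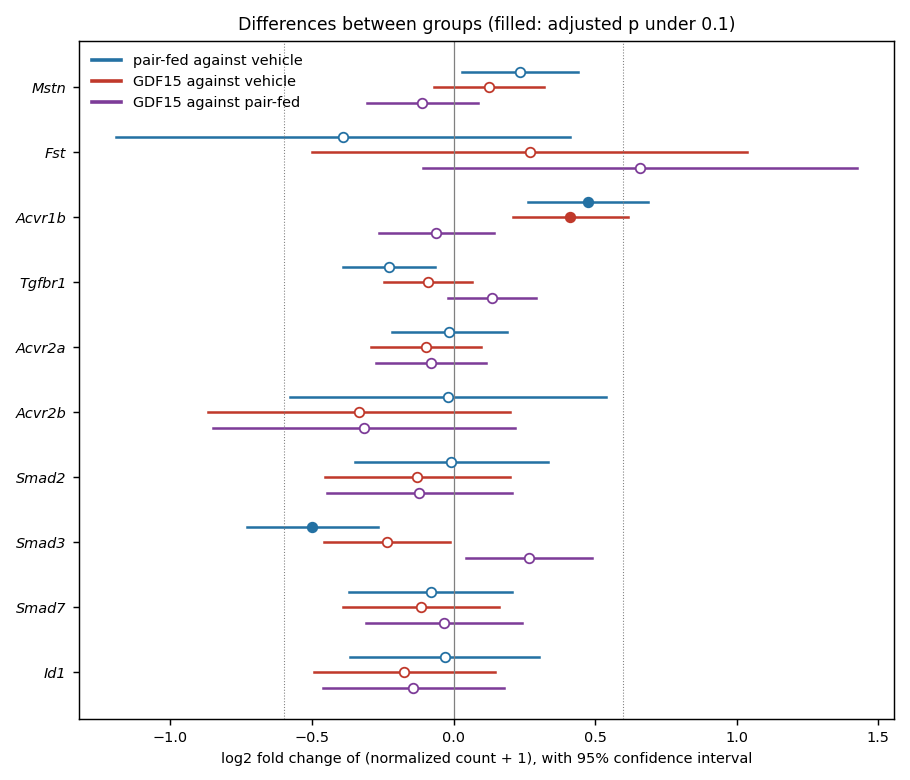
Log2 fold changes of each gene in the 3 comparisons with 95% confidence intervals, with dotted lines at 0.6 on either side of 0 and filled points where the adjusted p was under 0.1. The filled points are Acvr1b in both comparisons with vehicle (0.41 and 0.47) and Smad3 in pair-fed against vehicle (-0.50), and the intervals of Fst and Acvr2b are the widest.

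The sequences upstream of the ligand gene and of the 2 genes that passed are shown because Acvr1b and Smad3 differed from vehicle in opposite directions, and because the letters that SMAD3 is known to bind, GTCT or its complement AGAC, can be read in them. Each is the 250 bases before a RefSeq start site in GRCm38.p6, written 5′ to 3′ on the strand of the gene, with GTCT and AGAC in capitals. Mstn is at chr1:53061390-53061639 on the plus strand, Acvr1b at chr15:101173822-101174071 on the plus strand, where the last bases overlap the first exon of the GENCODE annotation, and Smad3 at chr9:63757995-63758244 on the minus strand.
Mstn: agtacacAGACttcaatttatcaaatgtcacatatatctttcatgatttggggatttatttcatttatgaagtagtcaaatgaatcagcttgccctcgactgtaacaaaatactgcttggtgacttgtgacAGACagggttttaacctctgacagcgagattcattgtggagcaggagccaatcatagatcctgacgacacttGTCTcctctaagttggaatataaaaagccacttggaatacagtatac
Acvr1b: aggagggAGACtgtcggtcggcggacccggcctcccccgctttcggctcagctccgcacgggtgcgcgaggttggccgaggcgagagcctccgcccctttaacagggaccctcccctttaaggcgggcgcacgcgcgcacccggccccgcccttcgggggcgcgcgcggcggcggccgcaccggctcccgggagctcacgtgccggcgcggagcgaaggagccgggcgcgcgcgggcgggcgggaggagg
Smad3: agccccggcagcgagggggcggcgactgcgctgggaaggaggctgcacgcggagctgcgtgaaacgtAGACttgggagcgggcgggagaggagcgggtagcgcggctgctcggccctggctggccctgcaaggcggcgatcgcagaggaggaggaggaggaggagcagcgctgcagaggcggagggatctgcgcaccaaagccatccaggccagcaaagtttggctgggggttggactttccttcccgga

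These stretches differed in composition before any motif was counted. G and C made up 38.4% of the bases before Mstn, 78.8% before Acvr1b and 69.2% before Smad3, beside a median of 52.4% over 32851 upstream stretches of the same length. GTCT, searched on both strands, was found 3 times before Mstn (243, 119 and 47 bases before the start), 1 time before Acvr1b (243 bases) and 1 time before Smad3 (183 bases), and 82.9% of all stretches hold it. The longer CAGAC, which contains AGAC and so overlaps those matches, was found 2 times before Mstn and in neither of the others, and 42.2% of all stretches hold it. CANNTG, the E-box that myogenic factors such as MyoD bind, was found 4 times before Mstn, 1 time before Acvr1b and 0 times before Smad3, beside 66.2% of all stretches. TATAAA was found before Mstn, 29 bases from the start, where 12.4% of all stretches hold it, and CCAAT was found 1 time before Mstn and 0 times before the other two, beside 33.8%. GGCGCC and TGTTTAC, held by 9.59% and 3.17% of all stretches, were not found in these windows. A match is a description of letters and not a bound site.

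Mstn (chromosome 1, 53061640 to 53068079 in GRCm38) encodes the muscle's own brake on growth. Its normalized counts were 573, 471, 544, 482 and 589.8 in vehicle-treated mice 1 to 5, and 618, 577, 599, 614 and 719.6 in pair-fed mice 2 to 6. With GDF15 the lowest was 490.5, the median 579 and the highest 709.8. All 5 pair-fed values lay above the vehicle median and 4 of them above every vehicle value, while the GDF15 values spanned nearly the whole range of the other groups. The log2 fold change was 0.23 for pair-fed against vehicle (standard error 0.10, 95% confidence interval 0.03 to 0.44, adjusted p = 0.198), 0.13 for GDF15 against vehicle (interval -0.07 to 0.32, adjusted p = 0.678) and -0.11 for GDF15 against pair-fed (interval -0.31 to 0.09, adjusted p = 0.652). Mstn therefore passed in no comparison, and a rise of up to 0.44 on the log2 scale with pair-feeding lies within the interval.

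Fst (chromosome 13, 114452290 to 114458951), which encodes the trap for myostatin and activins, was scarce in this muscle and varied widely between mice of 1 group. It had 20.7, 16.7, 37.3, 20.9 and 10.9 normalized counts in vehicle-treated mice 1 to 5, and 9.92, 10.5, 12.4, 16.7 and 32.5 in pair-fed mice 2 to 6. With GDF15 it ran from 9.26 over a median of 26.1 to 37.5. Each group held both low and high mice, and the SD was 46.1%, 38.0% and 57.2% of the mean for vehicle, GDF15 and pair-feeding. The difference between GDF15 and pair-feeding, 0.66, was the largest among the members in size, and its interval ran from -0.11 to 1.43 (adjusted p = 0.458), so that at this depth a change of that size could not be told from the spread between mice. The exons of Fst overlap those of Gm47040 on the opposite strand. The library kit keeps the strand of the RNA, and whether the counting used it is not given in the sources used here.

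Acvr1b (chromosome 15, 101174067 to 101213684) encodes ALK4, the type I receptor through which activins and, in part, myostatin signal. Its normalized counts were 1285, 948, 1033, 1112 and 839 in vehicle-treated mice 1 to 5. In pair-fed mice 2 to 6 they were 1648, 1344, 1253, 1573 and 1393, and with GDF15 the lowest was 1263, the median 1312 and the highest 1602. Vehicle-treated mouse 1 was the single vehicle value that reached into either other range: 5 of 6 GDF15 values and 4 of 5 pair-fed values lay above it, and all 11 lay above the vehicle median. Acvr1b was 1.39 times the vehicle level with pair-feeding (log2 fold change 0.47, standard error 0.10, interval 0.26 to 0.69, adjusted p = 0.0165) and 1.33 times with GDF15 (0.41, standard error 0.10, interval 0.21 to 0.62, adjusted p = 0.0856). GDF15 and pair-feeding differed by -0.06, with an interval of -0.26 to 0.14 (adjusted p = 0.825).

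The 2 calls on Acvr1b were not equally firm. The call for pair-fed against vehicle was kept in every alternative fit, with adjusted p between 0.00693 and 0.0559. The call for GDF15 against vehicle was lost in 3 of 10 other settings and in 9 of 16 fits that left out 1 mouse (vehicle-treated mice 2, 3 and 5, GDF15-treated mice 1, 2, 4, 5 and 6, and pair-fed mouse 3), with adjusted p between 0.102 and 0.204 in those fits and a log2 fold change that stayed between 0.33 and 0.49 over all 26 alternatives.

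Tgfbr1 (chromosome 4, 47353222 to 47414931) encodes ALK5, the other type I receptor for myostatin. Vehicle-treated mice 1 to 5 had 339.6, 305, 331, 341 and 307 normalized counts, and pair-fed mice 2 to 6 had 266, 294, 307, 288 and 234. With GDF15 the values ran from 268 over a median of 309 to 334. All 5 pair-fed values lay below the vehicle median and 4 of them below every vehicle value. The log2 fold change for pair-fed against vehicle was -0.23 (interval -0.39 to -0.07) and missed the threshold (adjusted p = 0.112). It passed in 4 alternative fits: with a minimum mean of 50 (adjusted p = 0.0938), without GDF15-treated mouse 4 (0.0975), without pair-fed mouse 3 (0.0923) and without pair-fed mouse 4 (0.0760). GDF15 differed from pair-feeding by 0.14 (interval -0.02 to 0.29) and from vehicle by -0.09 (interval -0.25 to 0.06).

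The type II receptors, which bind the ligand first, passed in no comparison. Acvr2a (chromosome 2, 48814109 to 48903269) had a mean of 369 ± 44.3 normalized counts with vehicle (SD, n = 5), 344 ± 36.7 with GDF15 (n = 6) and 364 ± 37.3 with pair-feeding (n = 5), and the log2 fold change was -0.02 for pair-fed against vehicle (interval -0.22 to 0.19), -0.10 for GDF15 against vehicle (-0.29 to 0.10) and -0.08 for GDF15 against pair-fed (-0.27 to 0.11). Its exons overlap those of Orc4 on the opposite strand. Acvr2b (chromosome 9, 119402118 to 119434995), the receptor best known for binding myostatin, was scarce, at 18.3 ± 3.10 with vehicle, 14.9 ± 5.21 with GDF15 and 18.4 ± 5.28 with pair-feeding. GDF15 differed from vehicle by -0.33 (interval -0.87 to 0.20, adjusted p = 0.685) and from pair-feeding by -0.32 (interval -0.85 to 0.22, adjusted p = 0.636), both wide intervals that include 0.

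Smad3 (chromosome 9, 63646767 to 63757994) encodes the SMAD that carries much of the myostatin signal in muscle. Its normalized counts were 1795, 1849, 2154, 1557 and 1836 in vehicle-treated mice 1 to 5, and 1243, 1406, 1514, 1179 and 1162 in pair-fed mice 2 to 6. With GDF15 the lowest was 1307, the median 1535 and the highest 1988. The pair-fed and vehicle values did not overlap, and the GDF15 values reached into both ranges. Smad3 with pair-feeding was 0.71 times the vehicle level (log2 fold change -0.50, standard error 0.11, interval -0.73 to -0.27, adjusted p = 0.0194), and this call was kept in every alternative fit, with adjusted p between 0.0129 and 0.0622. GDF15 lay between the other groups, at -0.23 against vehicle (interval -0.46 to -0.01, adjusted p = 0.417) and 0.27 against pair-feeding (interval 0.04 to 0.49, adjusted p = 0.286), and neither difference passed after adjustment.

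Smad2, the partner of SMAD3 in the same branch, was lower in level and passed in no comparison. It had 203 ± 21.3 normalized counts with vehicle, 189 ± 42.1 with GDF15 and 205 ± 41.2 with pair-feeding, with log2 fold changes of -0.01 for pair-fed against vehicle (interval -0.35 to 0.33), -0.13 for GDF15 against vehicle (-0.46 to 0.20) and -0.12 for GDF15 against pair-fed (-0.45 to 0.21). GDF15-treated mouse 6 and pair-fed mouse 6 were the lowest of the 16, at 131 and 135. Smad7, the inhibitory SMAD that the pathway itself induces, had 134 ± 8.40 with vehicle, 125 ± 24.4 with GDF15 and 128 ± 20.4 with pair-feeding, and its 3 log2 fold changes lay between -0.11 and -0.03 (adjusted p of 0.809 to 0.946). Both genes are on chromosome 18.

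Id1 (chromosome 2, 152736251 to 152737410) encodes an inhibitor of basic helix-loop-helix factors and is switched on by the BMP SMADs. Its normalized counts were 164, 209, 138, 156 and 161 in vehicle-treated mice 1 to 5, and 170.1, 190.2, 167, 153 and 129 in pair-fed mice 2 to 6. With GDF15 the values ran from 99.5 over a median of 154 to 189. The groups overlapped almost fully, and the 2 lowest mice of the 16 were GDF15-treated mice 1 and 6. The log2 fold change was -0.17 for GDF15 against vehicle (interval -0.49 to 0.15, adjusted p = 0.745), -0.14 for GDF15 against pair-fed (interval -0.46 to 0.18, adjusted p = 0.730) and -0.03 for pair-fed against vehicle (interval -0.37 to 0.30, adjusted p = 0.943).

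Levels were compared between genes as normalized counts per kilobase of the longest annotated transcript. Tgfbr1, Smad2, Smad3 and Acvr2b have 5, 7, 5 and 6 annotated transcripts. Which of them the muscle expressed was not examined, so values compared between genes depend on this choice of length. Averaged over all 16 libraries the order was Smad3 at 309, Acvr1b at 293, Mstn at 215, Id1 at 136, Acvr2a at 63.0, Tgfbr1 at 52.6, Smad7 at 30.1, Smad2 at 24.6, Fst at 7.37 and Acvr2b at 5.38. The ranges of neighbours in that order overlapped over the libraries except between Id1 and Acvr2a, between Tgfbr1 and Smad7, and between Smad2 and Fst. On these lengths Acvr1b was on average 5.66 times Tgfbr1, Acvr2a 12.7 times Acvr2b and Smad3 13.0 times Smad2, as means of the ratio in each library. By group, in the order vehicle, GDF15 and pair-feeding and without a test, Acvr1b to Tgfbr1 was 4.17 ± 0.49, 5.92 ± 0.64 and 6.84 ± 1.18. Acvr2a to Acvr2b was 11.5 ± 2.35, 14.5 ± 5.86 and 11.9 ± 3.64, and Smad3 to Smad2 was 14.4 ± 1.04, 14.1 ± 5.49 and 10.4 ± 2.15. Mstn exceeded Fst per kilobase in every library, by 15.8 to 67.2 times. By the mean normalized count Smad3 ranked 1072 and Acvr1b 1341 among the 11841 tested genes, whereas Fst and Acvr2b ranked 10918 and 11202.

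The ratio of Acvr1b to Smad3 per kilobase sets the 2 members that passed beside each other in the same mouse. It was chosen after their values were seen and is given without a test. In vehicle-treated mice 1 to 5 it was 0.825, 0.591, 0.552, 0.823 and 0.526, and in pair-fed mice 2 to 6 it was 1.53, 1.10, 0.953, 1.54 and 1.38. With GDF15 it ran from 0.857 over a median of 0.972 to 1.31. All 5 vehicle-treated mice thus had less Acvr1b than Smad3 per kilobase, 4 of 5 pair-fed mice had more, and the GDF15-treated mice fell on both sides of 1. Where 1 falls depends on the transcript lengths used.

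**Figure D3:**
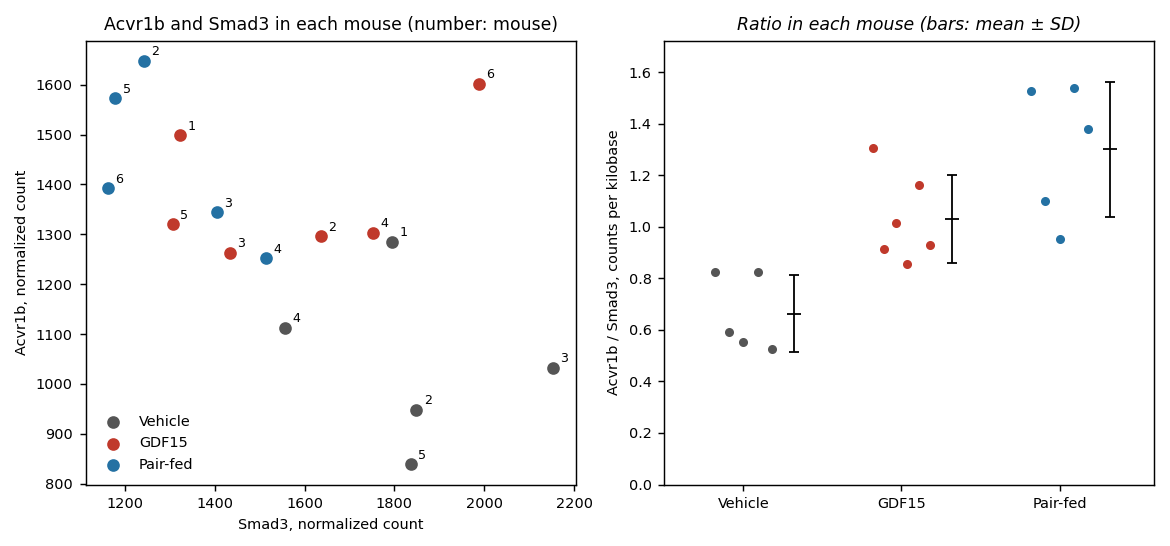
Left, the normalized counts of Smad3 (horizontal) and Acvr1b (vertical) in each of the 16 mice, with the mouse number beside each point and neither axis starting at 0. Right, the ratio of the 2 genes per kilobase in each mouse, with mean and SD: 0.66 ± 0.15 for vehicle, 1.03 ± 0.17 for GDF15 and 1.30 ± 0.26 for pair-feeding.

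A wider list of 104 other genes of the TGFβ, activin and BMP pathways, without the 10 members, was read in the same fits. Of these, 95 had a row and 81 were tested. The list held 0 genes past both thresholds in any comparison, 2 genes past the adjusted p for GDF15 against pair-fed (Hgs and Tcap, both lower with GDF15), 0 for GDF15 against vehicle, and 4 for pair-fed against vehicle (Hgs and Tcap higher, Bmpr1a and Smurf2 lower with pair-feeding). That is 2.47%, 0% and 4.94% of the 81, beside the 2.17%, 0.769% and 6.37% of all tested genes given above. The median log2 fold changes of the 81 were 0.05, 0.02 and -0.01.

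Hgs encodes an endosomal sorting protein that handles internalized receptors and helps to present SMADs to them. It had 332, 317, 342, 348 and 313 normalized counts in vehicle-treated mice 1 to 5, and 438, 424, 410.5, 446 and 471 in pair-fed mice 2 to 6. With GDF15 it ran from 312 to 361. Every pair-fed mouse lay above every mouse of the other groups, and the GDF15 range contained the vehicle range. The log2 fold change was 0.41 for pair-fed against vehicle (interval 0.28 to 0.53, adjusted p = 0.00133), -0.41 for GDF15 against pair-fed (interval -0.52 to -0.29, adjusted p = 0.00243) and 0.00 for GDF15 against vehicle (interval -0.12 to 0.12). The first 2 of these share the pair-fed libraries, and both calls were kept in every alternative fit.

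Tcap encodes telethonin, a protein of the sarcomeric Z-disc that is also known to bind the myostatin precursor. Its mean was 28177 ± 1909 normalized counts with vehicle, 30789 ± 1379 with GDF15 and 34662 ± 1268 with pair-feeding. Pair-feeding exceeded vehicle by 0.30 (interval 0.20 to 0.40, adjusted p = 0.00284), and GDF15 was below pair-feeding by a log2 fold change of -0.17 (interval -0.27 to -0.08, adjusted p = 0.0821), with no overlap in either case. The second call was lost in 5 of 10 other settings and in 10 of 16 fits without 1 mouse (vehicle-treated mouse 4, GDF15-treated mice 1, 2, 4 and 6, and each pair-fed mouse in turn), where adjusted p reached 0.191. Telethonin is itself a fibre protein, and the values of the fibre markers are given below. Their part in the difference was not tested.

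Bmpr1a, a type I receptor for BMPs, was lower with pair-feeding than with vehicle (1079 ± 73.4 against 1265 ± 63.1 normalized counts, log2 fold change -0.23, interval -0.33 to -0.13, adjusted p = 0.0178). Smurf2, a ubiquitin ligase that marks receptors and SMADs for degradation, was lower as well (421 ± 31.3 against 485 ± 18.1, log2 fold change -0.21, interval -0.35 to -0.07, adjusted p = 0.0971). Neither gene's pair-fed and vehicle values overlapped. The Smurf2 call was lost in 4 of 10 other settings and in 12 of 16 fits without 1 mouse, up to an adjusted p of 0.195, and was kept only without GDF15-treated mouse 2, 3 or 6 or pair-fed mouse 3.

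**Figure D4:**
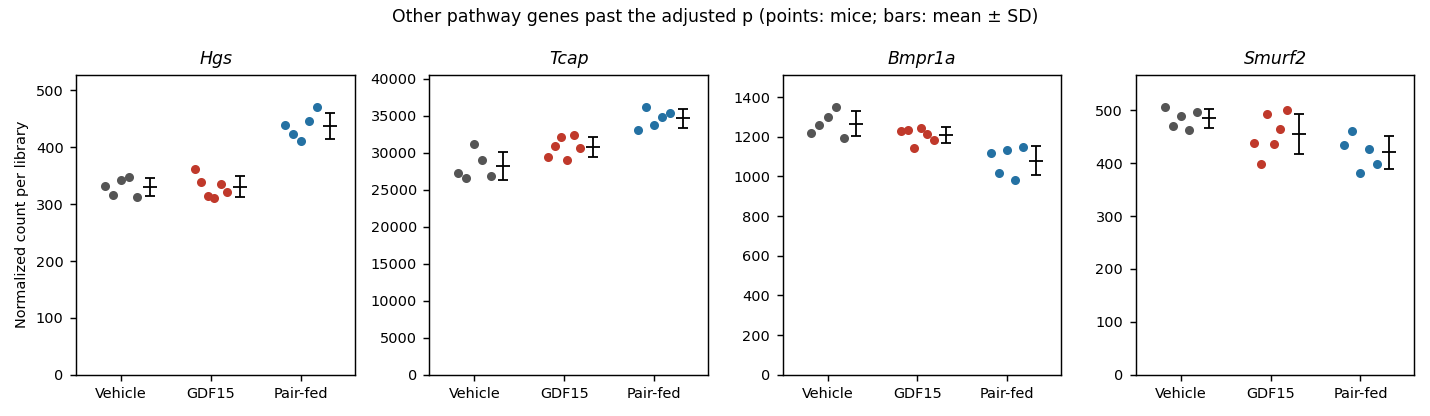
Normalized counts (vertical axes, starting at 0) in each mouse of the 4 other pathway genes that passed the adjusted p in any comparison, with mean and SD beside the points. All 5 pair-fed values of Hgs, 410.5 to 471, lie above all vehicle and GDF15 values, which end at 361.

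Counts by role are to be read beside the shares of all tested genes that passed, 6.37% for pair-fed against vehicle, 2.17% for GDF15 against pair-fed and 0.769% for GDF15 against vehicle. By role, 0 of 14 tested ligands passed in any comparison, Mstn included, and Mstn had the highest mean among them. Gdf11, the ligand most similar to myostatin, had 112 ± 32.4 normalized counts with vehicle, 121 ± 47.6 with GDF15 and 108 ± 14.1 with pair-feeding. Inhba and Inhbb, which encode the subunits of activin A and activin B, had low means over the 16 libraries, 11.7 and 18.2. Gdf15 was in the fixed set of relatives to be named, but no value of it is given here.

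Among 11 tested inhibitors of the ligands, 0 passed in any comparison, which, like the 0 of 14 ligands, is near the shares of all tested genes. Of the inhibitors, decorin (Dcn), a matrix protein that can bind TGFβ and myostatin, had the highest mean. Fstl3, a relative of follistatin that also traps myostatin and activins, had 10.7 ± 5.19 normalized counts with vehicle, 15.61 ± 5.09 with GDF15 and 19.9 ± 4.34 with pair-feeding. Its log2 fold change for pair-fed against vehicle was 0.93 with an interval of 0.24 to 1.61 and an adjusted p of 0.127.

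Of 9 tested genes that process or hold the ligands, Tcap alone passed, 1 of 9 (11.1%) for pair-fed against vehicle and for GDF15 against pair-fed. Of 16 receptors and co-receptors, members included, 2 passed for pair-fed against vehicle (Acvr1b and Bmpr1a, 12.5%), 1 for GDF15 against vehicle (Acvr1b, 6.25%) and 0 for GDF15 against pair-fed. The highest mean was that of Hjv, a BMP co-receptor, at 11335 normalized counts. Of 7 tested SMADs, Smad3 alone passed, for pair-fed against vehicle (14.3%), and it had the highest mean. Smad4, the partner shared by both branches, had 655 ± 76.7 with vehicle, 615 ± 48.3 with GDF15 and 686 ± 68.7 with pair-feeding, and the inhibitory Smad6 ran from 97.5 to 135, from 84.2 to 114 and from 103 to 137. Of 18 regulators of SMADs, Hgs and Smurf2 passed for pair-fed against vehicle (11.1%) and Hgs for GDF15 against pair-fed (5.56%), and the ubiquitin ligase Wwp1 had the highest mean.

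Of 10 tested BMP targets, which lie downstream, Id1 included, 0 passed in any comparison. This is near the shares of all tested genes, 2.17% for GDF15 against pair-fed, 0.769% for GDF15 against vehicle and 6.37% for pair-fed against vehicle. The median log2 fold changes of the 10 were -0.07, 0.03 and 0.07 in the same order. Fbxo30, a ubiquitin ligase that takes part in muscle loss, had the highest mean of these. The list does not separate targets that BMPs raise from those they lower, so its medians are not a measure of BMP signalling. Of 12 tested TGFβ and activin targets 0 passed either, again near those shares. Their medians were 0.14, 0.24 and -0.09, and the collagen gene Col1a2 had the highest mean. Values of fibro-adipogenic markers are given below, and their part in these medians was not tested. A p-value that misses the threshold does not show that the targets of either list were equal. The targets' widest differences ran from -0.58 to 0.55 on the log2 scale.

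Markers of muscle fibres and of 9 other cell types were summed in each library, because fewer cells of a type and less RNA per cell cannot be told apart in bulk muscle. The muscle fibre sum (10 genes) was 2216617 to 2482081 normalized counts with vehicle, 2249886 to 2504336 with GDF15 and 2409762 to 2756322 with pair-feeding. Of its 10 genes, 4 passed for pair-fed against vehicle (Ckm, Actn3 and Pvalb higher and Myh1 lower), 1 for GDF15 against pair-fed (Actn3 lower with GDF15) and 0 for GDF15 against vehicle. Beside these counts stand 6.37%, 2.17% and 0.769% of all tested genes. For pair-fed against vehicle 1 of the 10, Myh1, passed both thresholds, beside 0.819% of all tested genes. The lowest log2 fold change of the list there was -0.68. The endothelial sum (7 genes) was 5399 to 6339 with vehicle, 4511 to 5636 with GDF15 and 4678 to 5604 with pair-feeding. Kdr, the receptor for vascular endothelial growth factor, was the endothelial marker that passed, at -0.66 for GDF15 against vehicle (adjusted p = 0.00116) and -0.50 for pair-fed against vehicle (adjusted p = 0.00473).

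The sums themselves were not tested, and the part of the markers in the differences of Acvr1b and Smad3 was not tested either. The mean fibre sum was 1.00 times the vehicle mean with GDF15 and 1.08 times with pair-feeding. The tendon sum (5 genes) was 1.83 times the vehicle mean with GDF15 and 1.56 times with pair-feeding, and ranged from 1830 to 5297 with GDF15. The satellite cell (5 genes), fibro-adipogenic (7), smooth muscle and pericyte (5), macrophage (6), adipocyte (6), Schwann cell (5) and red blood cell (3 of 5 with a row) lists, like the tendon list, held 0 genes that passed in any comparison. The red blood cell sum was 1.43 times the vehicle mean with GDF15 and 1.35 times with pair-feeding, with ranges of 838 to 2556, 79.9 to 3743 and, with vehicle, 260 to 3146. The median log2 fold change of its 3 genes was 1.24 for GDF15 against vehicle, 1.17 for GDF15 against pair-fed and 0.07 for pair-fed against vehicle, beside a median of 0.00 over all tested genes in each. The macrophage sum was 1.30 times the vehicle mean with GDF15 and 0.98 times with pair-feeding. The mean sums of the other 5 of these lists, the tendon list left aside, lay between 0.87 and 1.16 times the vehicle mean. Fabp4 had the highest mean of the adipocyte list, and 5 of its 6 genes lay above 0 in each comparison with vehicle. The median log2 fold change of the 6 was 0.44 for GDF15 against vehicle, 0.58 for pair-fed against vehicle and -0.05 for GDF15 against pair-fed. Of the 7 fibro-adipogenic genes, 7 lay above 0 for GDF15 against pair-fed (median 0.35) and 6 for GDF15 against vehicle (0.19). For pair-fed against vehicle 1 did (-0.13). Alas2, the erythroid gene of heme synthesis, was at 0 in at least 1 library.

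**Figure D5:**
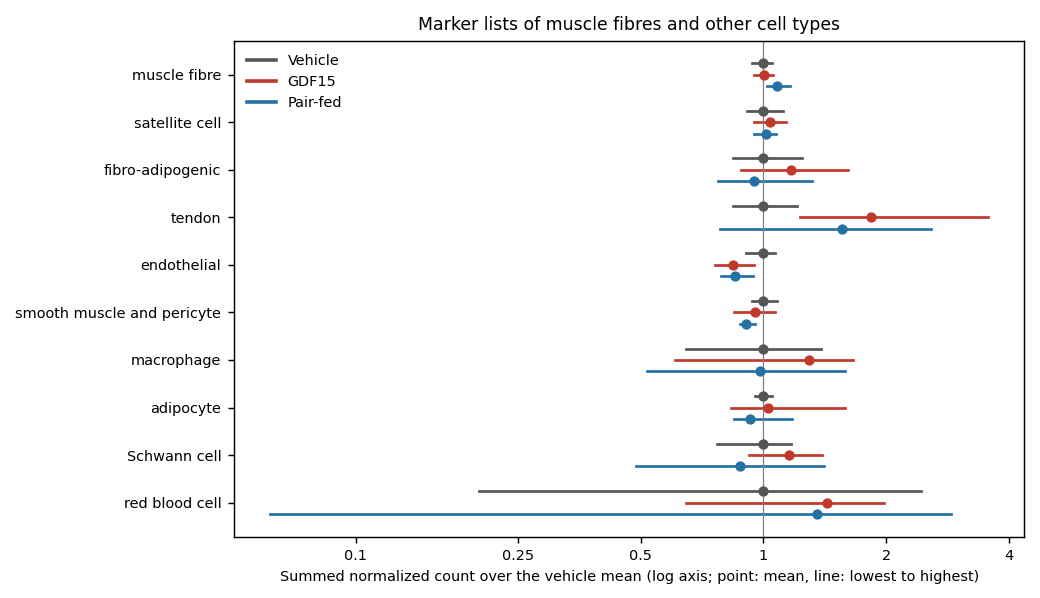
Summed normalized counts of each marker list divided by the vehicle mean of that list (log axis), with the group mean as a point and the lowest to highest library as a line. The endothelial sum averaged 0.84 of the vehicle mean with GDF15 and 0.85 with pair-feeding, and the tendon and red blood cell sums spread most between mice.

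The members were also compared with each other from mouse to mouse within the groups, after each group's mean was taken off the log2 values. Of the 45 pairs, 2 had a Benjamini-Hochberg adjusted p under 0.1 by Pearson's r and 0 by Spearman's rho (permutation within groups, 100000 resamples, two-sided). Mstn and Id1 ran opposite to each other (r = -0.77, permutation p = 0.00397, adjusted p = 0.0981; rho = -0.71, permutation p = 0.00834, adjusted p = 0.188), and r was -0.60 without the 2 mice farthest from the median of Mstn, pair-fed mouse 6 and GDF15-treated mouse 1. Acvr2a and Id1 did so as well (r = -0.70, permutation p = 0.00436, adjusted p = 0.0981; rho = -0.68, permutation p = 0.00746, adjusted p = 0.188), with r = -0.61 without pair-fed mouse 3 and vehicle-treated mouse 2.

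The same mice also differed in their marker sums, and the part of these in the pairs was not tested. Over 110 relations of members to marker sums and depth within groups, the smallest permutation p belonged to Mstn with the endothelial sum (r = -0.72, permutation p = 0.00323, adjusted p = 0.256; rho = -0.76, permutation p = 0.00139, adjusted p = 0.113, and r = -0.56 without GDF15-treated mice 1 and 5). Id1 had the opposite sign with the endothelial sum (r = 0.55, permutation p = 0.0452, adjusted p = 0.479; rho = 0.46, permutation p = 0.0968, adjusted p = 0.665, and r = 0.30 without the same mice). With the muscle fibre sum, Acvr2a had r = 0.67 (permutation p = 0.00955, adjusted p = 0.350; rho = 0.74, permutation p = 0.00345, adjusted p = 0.126, and r = 0.59 without GDF15-treated mouse 6 and pair-fed mouse 2) and Id1 had r = -0.62 (permutation p = 0.0156, adjusted p = 0.405; rho = -0.66, permutation p = 0.0123, adjusted p = 0.232, and r = -0.70 without those mice). The 2 members of each pair thus had opposite signs with the same marker sum. Acvr1b, in neither pair, had a positive relation to the muscle fibre sum (r = 0.71, permutation p = 0.00465, adjusted p = 0.256; rho = 0.75, permutation p = 0.00206, adjusted p = 0.113, and r = 0.62 without GDF15-treated mouse 6 and pair-fed mouse 2).

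The other relations of Acvr1b and Smad3 with an unadjusted p under 0.05 for Pearson's r were the following. Acvr1b had r = -0.54 with the endothelial sum (permutation p = 0.0377, adjusted p = 0.479; rho = -0.55, permutation p = 0.0391, adjusted p = 0.430, and r = -0.55 without GDF15-treated mice 1 and 5). It had r = 0.57 with the red blood cell sum (permutation p = 0.0467, adjusted p = 0.479; rho = 0.45, permutation p = 0.130, adjusted p = 0.681, and r = 0.52 without pair-fed mice 4 and 6). Smad3 had r = -0.59 with the satellite cell sum (permutation p = 0.0358, adjusted p = 0.479; rho = -0.59, permutation p = 0.0329, adjusted p = 0.430, and r = -0.41 without GDF15-treated mouse 1 and vehicle-treated mouse 4). It had r = -0.58 with the smooth muscle and pericyte sum (permutation p = 0.0479, adjusted p = 0.479; rho = -0.55, permutation p = 0.0583, adjusted p = 0.431, and r = -0.45 without GDF15-treated mice 4 and 5). Among the other members, Mstn had r = 0.60 with the tendon sum (permutation p = 0.0184, adjusted p = 0.405). There rho was 0.65 (permutation p = 0.00953, adjusted p = 0.232), and r was 0.53 without pair-fed mouse 2 and GDF15-treated mouse 1. Fst had r = -0.55 with the endothelial sum (permutation p = 0.0476, adjusted p = 0.479). There rho was -0.51 (permutation p = 0.0588, adjusted p = 0.431), and r was -0.29 without GDF15-treated mice 1 and 5. None of the 110 relations had an adjusted p under 0.1.

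The genes whose values most resembled a member over the 16 libraries, with group means taken off, are given as a description. For Mstn they were 0610010F05Rik (r = 0.86), Sema3c (0.85) and Slc44a2 (0.84). For Id1 they were Phb2 (0.87), Uqcr11 (0.86) and Tm6sf1 (0.86), and for Fst they were Shc1 (0.87), Btbd9 (0.86) and Rxylt1 (0.84). None of these is a member. Every gene tested could have been picked, and the libraries share their depth and scaling.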

How the data were processed

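RNA-seq libraries of tibialis anterior from 16 mice (vehicle 5, GDF15 6, pair-fed 5) were analysed, and groups were taken from the labels. The submitters' processing notes name Trim Galore for trimming, Salmon for transcript quantification, DESeq2 for gene-level scaling and mm10 as the build, without versions. Annotation and strand setting are not given in the sources used here. The authors deposited 1 table of log2 values (genes by libraries), 7.32 to 19.96, with 8459 values at the lowest. The shape of the deposited values is that of the authors' DESeq2 variance stabilization, and it was inverted here to normalized counts. Inverting and transforming again returned the deposited log2 values within 1.78e-15, a check of the arithmetic only. The form was checked on low values of single-transcript genes, of which 89.3% to 97.3% per library fell within 0.1 of a whole multiple of 1 step, against 19.4% to 26.4% in genes with more than 4 transcripts. Whole reads were therefore not recovered. Depth is the summed normalized count over that step, and it limits genes near the minimum mean. Single counting intervals were not computed. The design had assumed normalized counts, and its tests were kept on the inverted values.

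Genes with a mean of at least 10 entered limma 3.58.1 in R 4.3.3, on the log2 of the normalized count plus 1 (all 3 groups, eBayes with a trend, no covariate, two-sided). The thresholds, adjusted p under 0.1 and log2 fold change over 0.6, are those of the study. Simulated data, scored for pair-fed against vehicle only, had 200 of 11841 genes changed by 1 on the log2 scale, and 168 were called (84%). Among unchanged genes, 8 passed both thresholds and 24 the adjusted p alone, and 0 were called when none was changed. No member differed by that much, so the share does not give the power for changes of the members' size. Python 3.11.15 with pandas 2.3.3 and numpy 2.4.6 made the tables. Gene positions and transcript lengths are from GENCODE vM21 (GRCm38), in which 14282 symbols were found. Upstream sequences are from RefSeq (GRCm38.p6), in which 6 members were matched, of which 3 are shown. Fst, Smad2, Smad7 and Id1 were not matched. The members and lists were chosen with earlier results of these data known. Named genes were all members, pathway genes past the adjusted p, the gene of each list with the highest mean, and a fixed set of relatives. The relatives were Gdf11, Inhba, Inhbb, Fstl3, Smad4, Smad6 and Gdf15, the last without values here. The 3 genes most like Mstn, Id1 and Fst were named as well. Gdf1 and Cers1, the marker genes and the ratio of Acvr1b to Smad3 were chosen after values were seen. No label says that libraries shared an extraction or a run, and p-values measure the spread between mice. Alternatives were other pseudocounts (0.5 and 5), other minimum means (above 0 and 50), no trend, library weights, a replicate block by mouse number, a fit of the compared groups only, quantile normalization, the deposited log2 values, stricter thresholds and each library left out.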

Additional observations from a re-analysis of the deposited data

Results flagged for a closer look

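In pair-fed mouse 6, Mstn had 719.6 normalized counts, while the other 4 pair-fed mice had 577 to 618. The gap to the nearest of these was 0.715 of the range of the group, above Dixon's critical value for 5 samples at the 95% level. Of 30 combinations of member and group examined in this way this was the 1 that stood out, and chance gives 1.5, about 1 in 20. Without this mouse the log2 fold change of Mstn for pair-fed against vehicle stayed within the range of 0.18 to 0.27 found when each library was left out, and adjusted p was 0.145 to 0.380 over those fits.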

How the results depend on the processing

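Over 26 alternative settings, 16 of which leave out 1 library, 982 values of 38 gene results gave 915 with the same direction and side of the threshold, 43 that lost a call, 4 that gained one and 20 that changed sign. The count of members past both thresholds was 0 in every comparison and setting, the stricter thresholds included. The members past the adjusted p alone stayed at 0 for GDF15 against pair-fed and at 2 or 3 for pair-fed against vehicle. For GDF15 against vehicle that count fell from 1 to 0 with no trend (adjusted p of Acvr1b 0.156), with only the 2 groups compared (0.102) and with the mouse number as a replicate block (0.141), and it ranged from 0 to 1 when each library was left out. The cause was not tested. Sign changes affected values near 0: Acvr2a for pair-fed against vehicle was 0.00036 with quantile normalization, and Smad2 for that comparison was 0.015 with library weights, 0.12 with the replicate block and 0.00069 on the deposited log2 values. Leaving out 1 library gave -0.0984 to 0.0556 for Smad7 in GDF15 against pair-fed, and for pair-fed against vehicle -0.0798 to 0.0435 for Acvr2a, -0.145 to 0.0873 for Acvr2b, -0.0758 to 0.136 for Smad2 and -0.0925 to 0.0546 for Id1.

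Whether mice with the same number were matched for intake is not given in the sources used here. A low correlation between their libraries cannot decide this. Deviations from the group means correlated between -0.10 and 0.07 over the 14 pairs of libraries with the same number, none over 0.1, and the replicate block moved the genes past the adjusted p from 257 to 190.0 (GDF15 against pair-fed), from 91 to 38 (GDF15 against vehicle) and from 754 to 520.0 (pair-fed against vehicle). Over all genes the adjusted p alone called 115 with no trend and 122 with only the 2 groups for GDF15 against pair-fed (257), and 48 with no trend for GDF15 against vehicle (91). Past both thresholds, the deposited log2 values called 7, 9 and 17 genes against 33, 36 and 97, and the block called 20.0 for GDF15 against vehicle (36). Without 1 library the ranges were 66 to 372, 38 to 97 and 406 to 1051 at the adjusted p alone, and 15 to 62, 18 to 38 and 60.0 to 158 past both thresholds, the lowest without pair-fed mouse 5 (equalled at 66 without pair-fed mouse 6) or, for GDF15 against vehicle, vehicle-treated mouse 5, and the highest without pair-fed mouse 3 or, there, pair-fed mouse 6. Fst and Acvr2b lay near the minimum mean.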

Other observations

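Gdf1, a ligand that patterns the early embryo, had the largest log2 fold change of the wider pathway list in the comparisons with GDF15, and was picked out after its values were seen. Its normalized counts were 0, 29.5, 0, 0 and 60.9 in vehicle-treated mice 1 to 5, and 68.0, 41.3, 0, 54.4 and 0 in pair-fed mice 2 to 6. With GDF15 they were 33.6 at the lowest, 186 at the median and 259.6 at the highest. Gdf1 did not pass for GDF15 against vehicle (adjusted p = 0.153 from limma) or for GDF15 against pair-fed (adjusted p = 0.255). Both of its annotated exons overlap exons of Cers1, which encodes the main ceramide synthase of muscle, on the same strand, so the split of reads between the 2 genes is uncertain. Cers1 was at 0 to 4.55 normalized counts in GDF15-treated mice 2, 3 and 4, where Gdf1 was at 225 to 259.6, and at 208 to 296 in all vehicle-treated and pair-fed mice. Summed over both genes, the normalized count was 294 ± 6.92 with vehicle (n = 5), 292 ± 50.6 with GDF15 (n = 6) and 286 ± 42.1 with pair-feeding (n = 5), and the values of the 3 groups overlapped.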
